A study of Mus musculus with 9 samples.

Results

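The genes of the WNT pathway described here are 45 named genes: 9 Wnt ligands, 2 genes of Wnt secretion, 11 receptors, 5 genes of the R-spondin arm, 6 secreted antagonists, β-catenin with 4 genes of its destruction complex, 4 TCF factors and 3 feedback or target genes. They were taken by gene symbol from a count table of 54532 genes. All 45 were present, and 44 of them passed the filter on low counts that left 16178 genes for testing. The member left untested was Wnt3a, with 0 to 3 reads in each library.

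RNA was sequenced from 9 libraries of cultured mouse cells of an Sv129 x GOF/GFP F1 background, 3 from each of 3 cell types grown without feeder cells on fibronectin. AFSC, which resemble epiblast stem cells, were established from blastocysts with Activin A and bFGF and were used at passages 15 to 20. ALSC came from AFSC after more than 5 passages in Activin A and LIF, at passages 20 to 25. The protocol gives the ALSC recipe under the abbreviation of the other medium, so the ALSC medium is an interpretation. ABSC came from AFSC in Activin A and BMP4, are described as resembling trophoblast stem cells, and were used at passages 25 to 30. Activin A was thus present in all 3 media, and passage and cell type cannot be told apart. The labels do not say that the 3 libraries of a type are separate cultures, so p-values measure the spread between these libraries.

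Wnt proteins are lipid-modified signals that bind Frizzled receptors together with Lrp5 or Lrp6. In the canonical branch this stops the destruction complex of Axin, Apc and Gsk3b from marking β-catenin for degradation, and β-catenin then acts with TCF factors on target genes, several of which feed back on the pathway. In the early embryo Wnt signalling is known for its part in forming the primitive streak, and in culture it affects how pluripotent cells are maintained.

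Promoters were read from RefSeq (GRCm38.p6), as windows from 250 bases before to 50 bases after each gene's start. Of the 45 genes, 27 matched, with 37 promoters. CTTTGAA and CTTTGAT, forms of the site bound by TCF factors, were searched on both strands and cannot overlap each other at the same letters on the same strand. They were found in 4 of the 37 promoters (10.8%), those of Dkk1, Sp5, Wnt11 and Wnt5b, while 8.65% of all 32851 promoters in the table held one. The stretches of 3 of these genes are shown because Dkk1 and Wnt11 passed a test below and Sp5 is a known readout of the pathway. Each is written 5′ to 3′ on the gene's own strand with the site in capitals. Sp5 (chr2:70474673-70474922, + strand) and Wnt11 (chr7:98834862-98835111, + strand) are the 250 bases before the start. For Dkk1 (chr19:30549596-30549625, − strand) 30 bases around the site are given, because the gene model of the count table begins 169 bases further upstream.
Dkk1: ctcctcccaaagCTTTGAAatcccatcccg
Sp5: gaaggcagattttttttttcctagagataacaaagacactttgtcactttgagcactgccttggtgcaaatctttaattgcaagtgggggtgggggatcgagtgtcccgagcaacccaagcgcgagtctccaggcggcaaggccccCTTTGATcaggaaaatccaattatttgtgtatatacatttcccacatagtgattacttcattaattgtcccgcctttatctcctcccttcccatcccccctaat
Wnt11: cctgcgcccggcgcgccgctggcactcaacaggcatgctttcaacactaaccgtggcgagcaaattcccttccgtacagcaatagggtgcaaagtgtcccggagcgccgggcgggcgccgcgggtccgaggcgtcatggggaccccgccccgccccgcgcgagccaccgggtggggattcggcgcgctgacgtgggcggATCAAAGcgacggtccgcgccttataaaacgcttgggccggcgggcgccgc
The Dkk1 site CTTTGAA begins 117 bases before the RefSeq start and the Sp5 site CTTTGAT 104 bases before it. The Wnt11 site lies on the opposite strand, where it reads CTTTGAT, and begins 51 bases before the start. A further Wnt11 promoter in the table held no such site. Of the other motifs searched on both strands, TTCNNNGAA, the form bound by STAT factors downstream of LIF, was in 2 of the 37 (5.41%), of Frzb and Wnt5b, and in 8.30% of all promoters. GGCGCC, a motif linked to SMAD factors that respond to BMP, was in 13 of the 37 (35.1%), from 11 genes, and in 11.9% of all promoters. It holds only G and C and reads the same on both strands. The promoters were not matched for base composition, so these shares cannot be read as a link to BMP. These matches describe letters and not binding.

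Total counts ran from 18978651 to 21578737 per library. The libraries numbered 1 stood apart in every cell type: their counts differed from those of the same type by 12.3 to 25.3 times the sampling variance, against 2.08 to 4.11 times between numbers 2 and 3. Same-numbered libraries deviated together, though numbers 2 and 3 deviated together about as strongly across cell types, so that the libraries split into number 1 and the rest. Results are given from the fit with group means and, for calls that change, from the fit with the library number as a replicate block. Among 9 epiblast markers the summed level was 4235 to 4337 CPM (counts relative to the scaled library size) in AFSC, 3412 to 3811 in ALSC and 3476 to 3916 in ABSC. Dnmt3b and Pou5f1 made up most of each sum, and single markers differed more. In AFSC, ALSC and ABSC, the means were 189, 147 and 16.3 CPM for Fgf5 and 25.3, 11.9 and 16.1 for Sox2. They were 77.7, 29.4 and 54.0 for Pou3f1, 139, 250 and 181 for Nanog and 1074.5, 935 and 1226 for Pou5f1. Otx2, Zic2, Utf1 and Dnmt3b had lower means in ABSC than in AFSC. Of 6 trophoblast stem cell markers, summing to 189 to 258 CPM in AFSC, 157 to 294 in ALSC and 158 to 272 in ABSC, Cdx2 was higher in ABSC. The others did not all follow it. Tfap2c was highest in ALSC, with means of 3.79 CPM in AFSC, 18.7 in ALSC and 8.64 in ABSC. Eomes and Esrrb differed in no comparison. Gata3, left untested, had means of 0.227, 0.170 and 0.750 CPM in AFSC, ALSC and ABSC. Elf5 stood at or near 0 in ABSC, at 0.0491, 0 and 0.0506 CPM. Fibroblast markers summed to 9.16 to 23.9 CPM over all libraries.

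The calls fell on ligands, the Wnt carrier Wls, 2 Frizzled receptors, the R-spondin arm, secreted antagonists and Lef1, while β-catenin and its destruction complex were not called. Rose and fell are used only for a Benjamini-Hochberg adjusted p under 0.05 in edgeR's quasi-likelihood F test, adjusted over all 16178 genes. In ABSC against AFSC, 1 of the 44 genes rose (2.27%, against 3.98% of all genes) and 5 fell (11.4%, against 4.00%). In ALSC against AFSC, 2 rose (4.55%, against 3.54%) and 3 fell (6.82%, against 3.50%). In ABSC against ALSC, 1 rose (2.27%, against 5.41%) and 8 fell (18.2%, against 5.56%). A joint F test for any difference called 13 of the 44, against 14.8% of all genes. The median log2 fold change of the 44 genes was -0.15, 0.08 and -0.08 in these comparisons, and that of all genes was -0.004, 0.003 and -0.01. Both AFSC comparisons use the same 3 AFSC libraries.

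More of these genes passed once the library number was taken into account, as did more of all genes. With the replicate block, 6 rose and 8 fell in ABSC against AFSC, where 9.58% and 9.78% of all genes did. For ALSC against AFSC 12 rose and 8 fell, with 11.1% of all genes rising and 11.1% falling. In ABSC against ALSC 7 rose and 14 fell, with 14.2% and 14.3% of all genes. The joint test with the block called 27 of 44, against 37.0% of all genes. Without the libraries numbered 1, leaving 2 of each type, 9 rose and 14 fell in ABSC against AFSC (14.5% and 13.9% of all genes), 17 rose and 9 fell in ALSC against AFSC (12.1% and 13.3%), and 10 rose and 15 fell in ABSC against ALSC (16.8% and 15.4%).

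**Figure D1:**
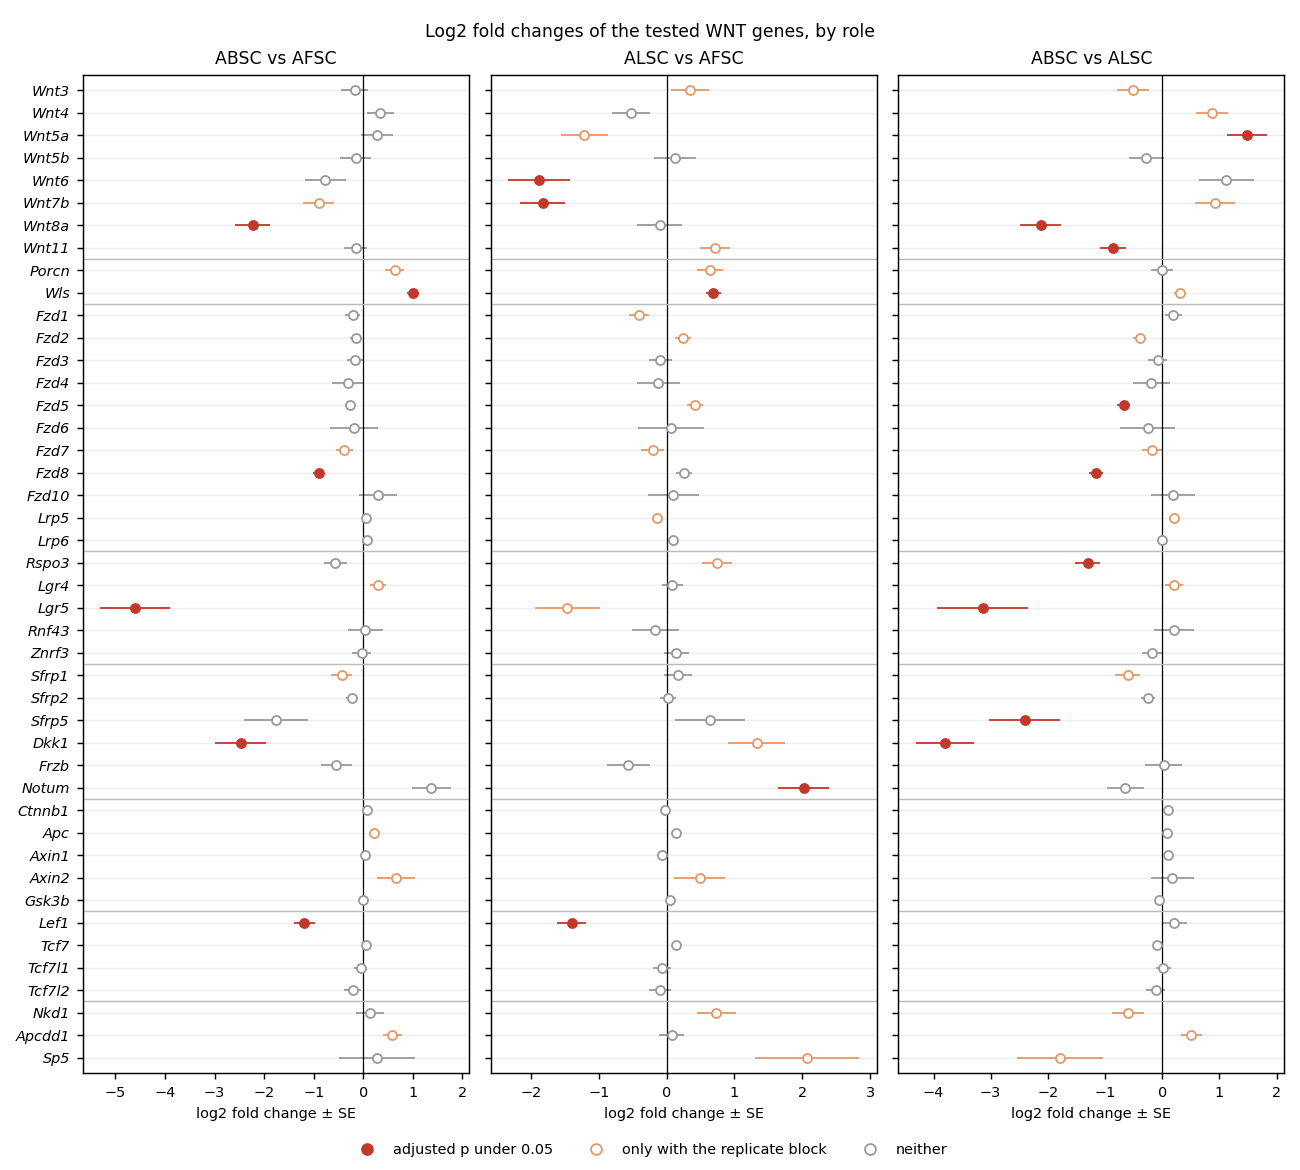
Log2 fold change with its standard error (SE) for the 44 tested genes, in rows grouped by role, for the 3 comparisons in panels with separate x axes. Filled points passed the test, orange rings passed only with the replicate block, and grey rings passed neither. The filled points lie mostly left of 0 in the panels of ABSC against AFSC and ABSC against ALSC.

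Among the ligands, Wnt8a, a canonical ligand of the streak region (chr18:34542313-34548273), was the one with the largest change. It stood at 91.1, 110.9 and 111 CPM in AFSC libraries 1, 2 and 3, at 66.4, 112 and 113 in ALSC and at 10.6, 24.0 and 32.2 in ABSC. All 3 ABSC libraries lay below every other library, while AFSC and ALSC overlapped. Wnt8a fell by 2.23 on the log2 scale in ABSC against AFSC (SE 0.35, adjusted p = 0.0049) and fell by 2.13 against ALSC (SE 0.35, adjusted p = 0.0053). In bulk RNA of this kind, fewer cells expressing a gene and less RNA per cell cannot be told apart.

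Wnt5a, best known for signalling outside the canonical branch (chr14:28504750-28527448), moved the other way between ABSC and ALSC. It stood at 3.66, 7.89 and 6.30 CPM in AFSC, 1.98, 3.18 and 2.55 in ALSC and 4.47, 8.05 and 9.06 in ABSC. The ALSC libraries lay below all others, and ABSC and AFSC overlapped. Wnt5a rose in ABSC against ALSC (log2 fold change 1.49, SE 0.34, adjusted p = 0.022). Its call was lost without ALSC 1 (adjusted p = 0.063), ALSC 3 (0.067), ABSC 2 (0.081) or ABSC 3 (0.085). Against AFSC, the ALSC value was -1.22 (adjusted p = 0.064), and -1.18 with the replicate block (adjusted p = 3.4e-04).

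Wnt11, a further ligand with known non-canonical activity, was highest in ALSC. Its CPM were 7.37, 8.50 and 9.49 in AFSC, 13.0, 14.0 and 14.5 in ALSC and 4.76, 8.84 and 9.21 in ABSC. ALSC lay above both other types, which overlapped each other. Wnt11 fell by 0.86 in ABSC against ALSC (SE 0.22, adjusted p = 0.035). The call was lost without AFSC 2 or 3, any of the 3 ALSC libraries or ABSC 2, with adjusted p from 0.053 to 0.092, and in a fit of the 2 types alone (adjusted p = 0.087). The difference in ALSC against AFSC was 0.71 (adjusted p = 0.089), or 0.72 with the block (adjusted p = 0.0025).

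Wnt6 and Wnt7b, both low, were lower in ALSC than in AFSC. Wnt7b had 1.86, 2.55 and 2.35 CPM in AFSC, 0.505, 0.574 and 0.815 in ALSC and 0.737, 1.57 and 1.32 in ABSC. AFSC and ALSC did not overlap, and Wnt7b fell by 1.83 in ALSC (SE 0.34, adjusted p = 0.011). This was lost without AFSC 2 (adjusted p = 0.060) or AFSC 3 (0.054). With the block Wnt7b also passed in ABSC, as lower than in AFSC (log2 fold change -0.92, adjusted p = 0.025) and higher than in ALSC (0.91, adjusted p = 0.045). Wnt6 rested on 13 to 36 reads per AFSC library, 4 to 10 per ALSC library and 11 to 18 per ABSC library. It fell by 1.88 in ALSC (SE 0.46, adjusted p = 0.036), and the call was lost without AFSC 2 or 3, any ALSC library or ABSC 2 (adjusted p from 0.054 to 0.15) and in a fit of the 2 types alone (0.058).

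The remaining tested ligands passed in none of the 3 comparisons without the block. Wnt3, a canonical ligand needed for the streak, stood at 24.6 to 41.3 CPM in AFSC, 36.2 to 49.8 in ALSC and 17.6 to 37.5 in ABSC. Its groups overlapped, yet within each library number ALSC was above AFSC and ABSC in 3 of 3 pairs. With the block it was 0.37 higher in ALSC than in AFSC (adjusted p = 0.035) and 0.57 lower in ABSC than in ALSC (log2 fold change -0.57, adjusted p = 0.0030). Wnt4 ranged from 1.41 to 4.18 CPM and was 0.88 higher in ABSC than in ALSC with the block (adjusted p = 0.018). Wnt5b, at 7.71 to 19.4 CPM, passed in no comparison with or without the block. The library kit did not mark the strand, and Wnt5b overlaps Fbxl14 on the opposite strand, whose mean count was 1893.1 against 306.1 for Wnt5b, and reads from the shared stretch cannot be told apart.

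Per kilobase of gene length, Wnt8a made up most of the Wnt ligand RNA in AFSC and ALSC and much less of it in ABSC. Over all 19 mouse Wnt genes, the summed level was 83.5 ± 11.5 CPM per kilobase in AFSC, 82.4 ± 18.5 in ALSC and 33.6 ± 12.5 in ABSC (SD, n = 3). The share of Wnt8a in that sum was 74.3%, 70.7% and 70.4% in the AFSC libraries, 62.3%, 70.2% and 68.6% in ALSC and 31.5%, 34.9% and 43.8% in ABSC. ABSC thus lay below all other libraries. Wnt3 accounted for 13.2% in AFSC, 17.5% in ALSC and 29.6% in ABSC, and Wnt5b for 6.81%, 7.65% and 15.4%. Such shares are descriptive, since 3 against 3 libraries cannot reach a p under 0.1 in an exact permutation test. In ABSC library 1 the sum was 19.2 CPM per kilobase, less than in ABSC libraries 2 and 3 (39.4 and 42.2).

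**Figure D2:**
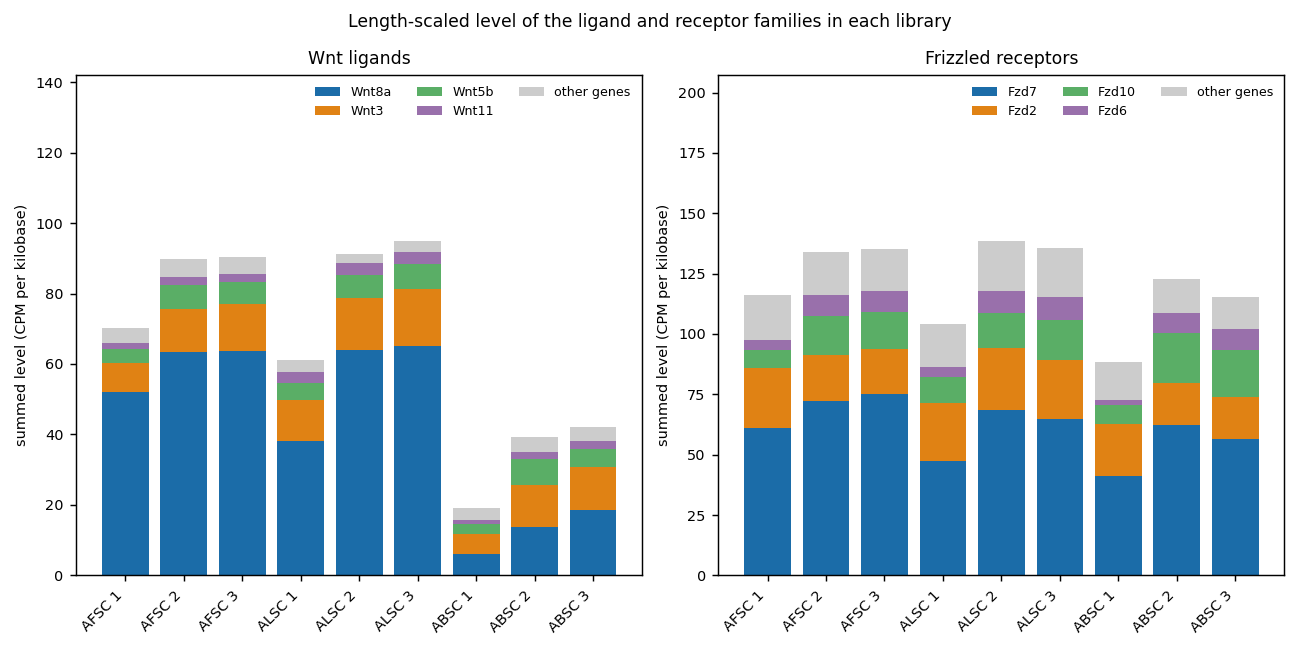
Summed level per kilobase of gene length (CPM per kilobase) of the 19 Wnt ligands on the left and 10 Frizzled receptors on the right. Stacked bars show each of the 9 libraries, with 4 abundant genes of each family coloured. These are Wnt8a, Wnt3, Wnt5b and Wnt11, and Fzd7, Fzd2, Fzd10 and Fzd6. Fzd5, left among the other genes, exceeded Fzd6 in library 1 of each type. The blue Wnt8a segment is the largest in the AFSC and ALSC bars, at 62.3% to 74.3% of each, and 31.5% to 43.8% of the ABSC bars. Fzd7 is the largest Frizzled segment in every library.

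Wls, the carrier that brings Wnt proteins to the cell surface (chr3:159839672-159938664), rose in both derived cell types. It stood at 18.6, 18.3 and 19.3 CPM in AFSC, 30.0, 30.9 and 29.6 in ALSC and 31.1, 40.7 and 40.8 in ABSC, with no overlap between any of the 3 types. The rise was 1.00 in ABSC against AFSC (SE 0.11, adjusted p = 5.0e-04) and 0.69 in ALSC against AFSC (SE 0.11, adjusted p = 0.0064). ABSC against ALSC was 0.31 (adjusted p = 0.098), and passed with the block (0.31, adjusted p = 0.019). Porcn, the enzyme that adds the lipid to Wnt proteins, ranged from 7.18 to 9.02 CPM in AFSC, 9.42 to 14.0 in ALSC and 11.0 to 14.8 in ABSC. It did not pass without the block (adjusted p = 0.078 in ABSC and 0.077 in ALSC against AFSC) and passed with it, at 0.62 (adjusted p = 0.014) and 0.63 (adjusted p = 0.013).

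Of the 9 Frizzled genes and both co-receptors, Fzd8 and Fzd5 were lower in ABSC. Fzd8 (chr18:9212856-9216201) stood at 12.2, 13.0 and 12.6 CPM in AFSC, 13.4, 16.6 and 15.2 in ALSC and 6.63, 6.85 and 6.73 in ABSC. Every ABSC library held close to the same level, far below the others. Fzd8 fell by 0.90 in ABSC against AFSC (SE 0.12, adjusted p = 0.0014) and fell by 1.16 against ALSC (SE 0.12, adjusted p = 2.9e-04). Fzd5 (chr1:64730558-64737751) stood at 39.4, 37.7 and 37.5 CPM in AFSC, 41.5, 53.3 and 57.9 in ALSC and 31.3, 34.1 and 30.2 in ABSC. No 2 types overlapped. It fell by 0.67 in ABSC against ALSC (SE 0.12, adjusted p = 0.0053), and the value against AFSC was -0.26 (adjusted p = 0.24). ALSC against AFSC gave 0.41 (adjusted p = 0.061), which passed with the block (0.41, adjusted p = 0.0085).

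Fzd7, a receptor abundant in pluripotent cells, led its family and was not called without the block. Its CPM were 276 to 340 in AFSC, 214 to 311 in ALSC and 187 to 282 in ABSC, so the types overlapped. It made up 53.9% of the Frizzled level per kilobase in AFSC, 47.5% in ALSC and 48.7% in ABSC. Within each library number, Fzd7 was lower in ABSC than in ALSC and lower in ALSC than in AFSC, in 3 of 3 pairs. With the block the log2 fold change was -0.40 in ABSC against AFSC (adjusted p = 2.0e-04), -0.22 in ALSC against AFSC (adjusted p = 0.014) and -0.18 in ABSC against ALSC (adjusted p = 0.035). Fzd1, Fzd2 and Lrp5 also passed only with the block in at least 1 comparison, the largest log2 fold change being -0.42 for Fzd1 in ALSC against AFSC (adjusted p = 0.035). Fzd3, Fzd4, Fzd6, Fzd10 and Lrp6 passed in none with or without it. The co-receptors stood at 107 to 140 CPM (Lrp5) and 118 to 139 CPM (Lrp6) over all 9 libraries.

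In the R-spondin arm, which sets how many Frizzled receptors stay at the cell surface, the ligand Rspo3 was lower in ABSC than in ALSC. Its relative Rspo1, one of the further pathway genes listed below, was higher in ABSC than in ALSC. The receptor Lgr5 was lower in ABSC than in both other types. Rspo3 (chr10:29452416-29535867) stood at 2.68, 3.12 and 3.29 CPM in AFSC, 5.15, 4.86 and 5.20 in ALSC and 1.42, 2.25 and 2.48 in ABSC, with no overlap between types. It fell by 1.30 in ABSC against ALSC (SE 0.22, adjusted p = 0.0051). Against AFSC the ABSC value was -0.56 and did not pass (adjusted p = 0.19, or 0.075 with the block). The value in ALSC against AFSC was 0.74 (adjusted p = 0.072), or 0.75 with the block (adjusted p = 0.012). Rspo1 had means of 6.07 CPM in AFSC, 3.74 in ALSC and 7.33 in ABSC. It rose by 0.97 in ABSC against ALSC (SE 0.19, adjusted p = 0.0098). Against AFSC the ABSC value of Rspo1 was 0.27 (adjusted p = 0.49). In ALSC against AFSC it was -0.70 (adjusted p = 0.056), or -0.70 with the block (adjusted p = 0.011).

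Lgr5, an R-spondin receptor and a known Wnt target (chr10:115450311-115587780), was scarce everywhere. It had 20, 26 and 40 reads in AFSC, 9, 10 and 11 in ALSC and 0, 3 and 0 in ABSC. These sums of 86, 30 and 3 reads put AFSC 27.5 times above ABSC (95% interval of the ratio 9.09 to 136, counting error only) and ALSC 9.78 times above ABSC (3.04 to 50.1). Lgr5 fell in ABSC against AFSC (adjusted p = 0.0030) and against ALSC (adjusted p = 0.031). The latter was lost without AFSC 2, ALSC 2, ALSC 3, ABSC 1 or ABSC 3 (adjusted p from 0.054 to 0.099) and in a fit of the 2 types alone (0.076). Lgr4, a far more abundant relative, was at 146 to 240 CPM and passed with the block as 0.28 higher in ABSC than in AFSC (adjusted p = 0.0013) and 0.20 higher than in ALSC (adjusted p = 0.0097). Rnf43 and Znrf3, the ligases that remove Frizzled from the surface, passed in no comparison with or without the block.

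Among secreted antagonists, Dkk1, which blocks Lrp5 and Lrp6 and whose promoter site is shown above, differed most. It stood at 3.81, 3.69 and 2.44 CPM in AFSC, 4.64, 9.50 and 10.9 in ALSC and 0.196, 0.471 and 1.11 in ABSC. The 3 types did not overlap. Dkk1 fell by 3.80 in ABSC against ALSC (SE 0.51, adjusted p = 0.0014) and fell by 2.47 against AFSC (SE 0.52, adjusted p = 0.016). The AFSC comparison lost its call without AFSC 2 (adjusted p = 0.059) or ABSC 2 (0.075). For ALSC against AFSC the value was 1.33 (SE 0.42, adjusted p = 0.094). That difference passed with the block (1.25, adjusted p = 0.033), without ALSC 1 (1.62, adjusted p = 0.034), without ABSC 1 (adjusted p = 0.040) and with DESeq2 (adjusted p = 0.029).

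Sfrp5, which binds Wnt proteins and is known from anterior endoderm, rested on 5 to 19 reads per AFSC library, 13 to 28 per ALSC library and 2 to 4 per ABSC library. It fell by 2.40 in ABSC against ALSC (SE 0.62, adjusted p = 0.035). The call was lost without AFSC 2, ALSC 2, ALSC 3 or any ABSC library, with adjusted p from 0.051 to 0.13. Of 8 endoderm markers, 6 fell in ABSC against ALSC, as Dkk1 and Sfrp5 did (Gata4, Gata6, Sox17, Foxa2, Pdgfra and Cer1). In ABSC against AFSC Sox17, Foxa2 and Cer1 fell. For ALSC against AFSC, Gata4, Gata6, Pdgfra and Cer1 passed as higher in ALSC with the block only. Hhex, also on the list, differed by -0.05 in ABSC against AFSC (adjusted p = 0.93) and -0.09 against ALSC (adjusted p = 0.76). The summed level of the 8 genes was 36.5 to 45.3 CPM in AFSC, 44.1 to 61.0 in ALSC and 13.0 to 16.5 in ABSC. Without Foxa2 the sums were 21.8 to 28.5, 27.5 to 40.6 and 12.6 to 16.1. Foxa2 stood at 14.7 to 16.8 CPM in AFSC, 14.6 to 20.4 in ALSC and 0.147 to 0.418 in ABSC, and no endoderm marker was at 0 in every library. Cer1, a marker on that list, stood at 0, 0.0523 and 0.101 CPM in ABSC. Their part in the result was not tested.

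Notum, a secreted enzyme that removes the Wnt lipid and a known target of the pathway, was near the limit of detection. It had 4, 4 and 3 reads in AFSC, 18, 13 and 14 in ALSC and 12, 7 and 9 in ABSC. AFSC lay below all other libraries. Notum rose in ALSC against AFSC (log2 fold change 2.02, SE 0.38, adjusted p = 0.012), a call lost without AFSC 2 (adjusted p = 0.058) or AFSC 3 (0.066). In ABSC against AFSC the value was 1.37 (adjusted p = 0.066). Sfrp1, at 7.90 to 17.3 CPM, passed with the block in ABSC against both other types, at -0.43 (adjusted p = 0.040) and -0.63 (adjusted p = 0.0035). Sfrp2 (22.6 to 33.5 CPM) and Frzb (0.737 to 1.80 CPM) passed in none.

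**Figure D3:**
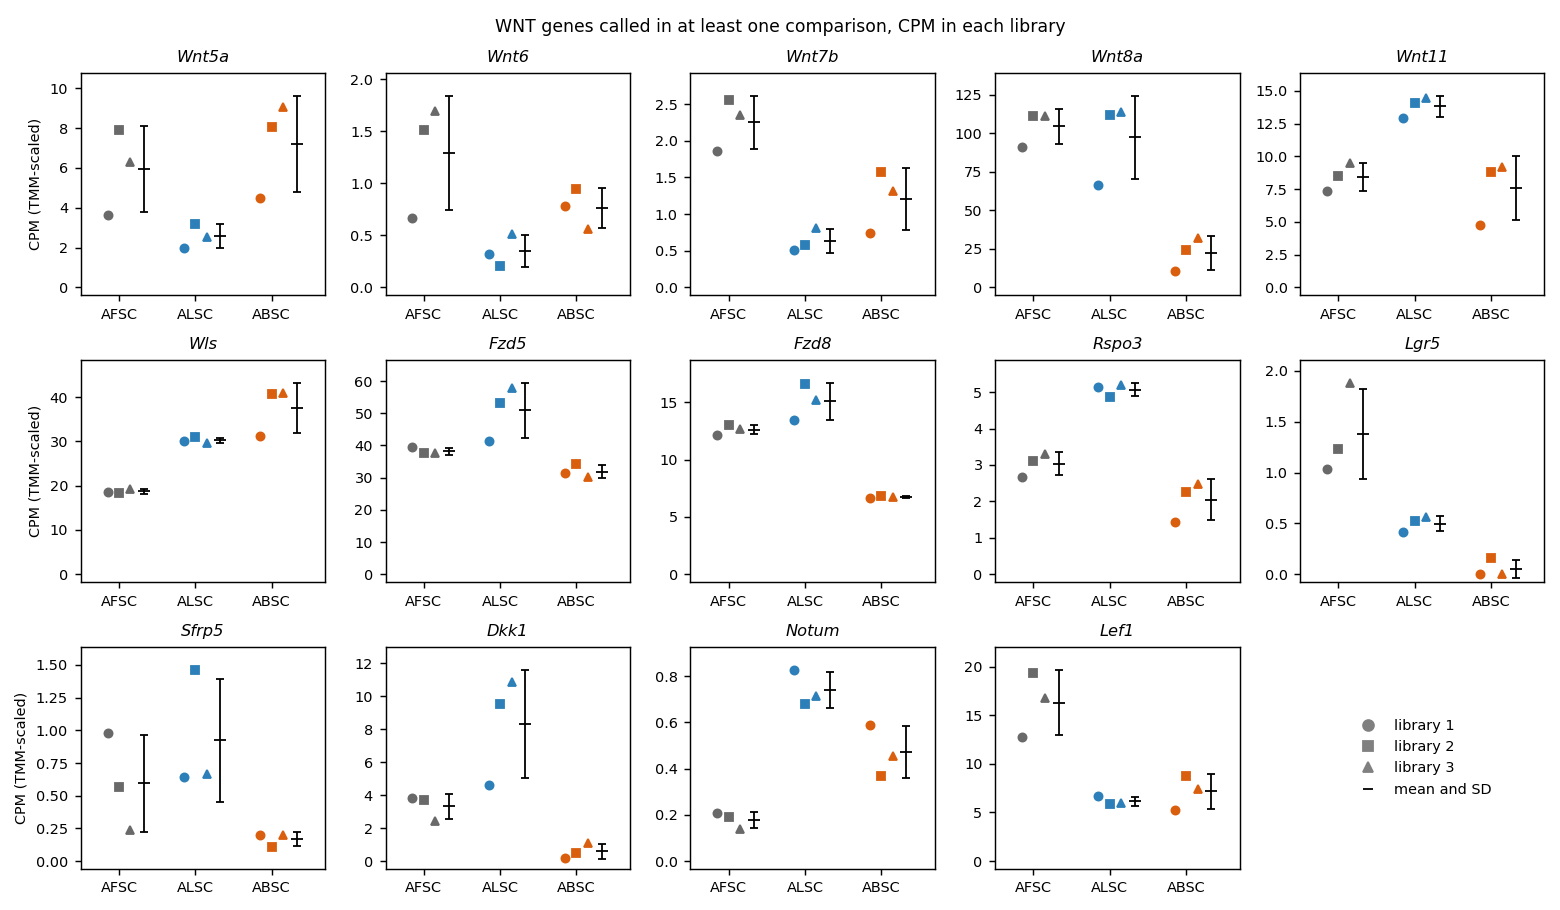
CPM in each library for the 14 genes called in at least 1 comparison, with circles, squares and triangles for libraries 1, 2 and 3, and the mean with its SD (n = 3) to the right of each group. Each panel has its own y axis. The ABSC points lie below both other groups for Wnt8a, Fzd5, Fzd8, Rspo3, Lgr5, Sfrp5 and Dkk1. The AFSC points lie above both other groups for Lef1 and Wnt7b.

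The 5 genes of β-catenin and its destruction complex gave 0 calls with edgeR and 0 with DESeq2. At an unadjusted p under 0.05, Apc differed between ABSC and AFSC and Ctnnb1 between ABSC and ALSC. Ctnnb1, which encodes β-catenin, stood at 611 to 682 CPM, Apc at 165 to 210, Gsk3b at 111 to 119 and Axin1 at 91.7 to 107 over the 9 libraries. With the replicate block Apc was 0.22 higher in ABSC than in AFSC (adjusted p = 0.0049). For Ctnnb1 the difference between ABSC and AFSC was 0.08 (SE 0.04, adjusted p = 0.35).

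Axin2, the member of this complex that is itself a canonical target (chr11:108920349-108950783), gave a result that turned on the library number. It stood at 29.3, 50.9 and 51.4 CPM in AFSC, 40.0, 70.1 and 74.4 in ALSC and 34.2, 81.7 and 92.3 in ABSC. The number 1 library was the lowest of each type, and all 3 types overlapped. Axin2 was higher than in AFSC in 3 of 3 same-numbered pairs, for ALSC and for ABSC. The log2 fold change was 0.66 in ABSC against AFSC (SE 0.38, adjusted p = 0.39) and 0.49 in ALSC against AFSC (SE 0.38, adjusted p = 0.52). With the replicate block these were 0.61 (SE 0.10, adjusted p = 0.0013) and 0.49 (SE 0.10, adjusted p = 0.0054). Without the libraries numbered 1 they were 0.77 (adjusted p = 2.0e-10) and 0.50 (adjusted p = 9.7e-07).

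Of the TCF factors, Lef1 (chr3:131110471-131224356) fell in both derived types while the other 3 were not called. It stood at 12.7, 19.4 and 16.8 CPM in AFSC, 6.66, 5.85 and 5.96 in ALSC and 5.26, 8.79 and 7.44 in ABSC. Every AFSC library lay above every other library, and ALSC and ABSC overlapped. Lef1 fell by 1.19 in ABSC (SE 0.21, adjusted p = 0.0065) and fell by 1.40 in ALSC (SE 0.21, adjusted p = 0.0044) against AFSC. Tcf7, Tcf7l1 and Tcf7l2 stood at 103 to 125, 105 to 166 and 8.35 to 14.2 CPM. Per kilobase, Tcf7 made up 51.0% of the summed TCF level in AFSC, 55.6% in ALSC and 53.5% in ABSC, and Tcf7l1, which mainly represses targets, 45.1%, 42.0% and 44.0%. Lef1 made up 2.28% in AFSC, 0.860% in ALSC and 1.01% in ABSC, and the family sum was 81.4, 82.6 and 80.3 CPM per kilobase.

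Sp5, a transcription factor that answers to β-catenin (chr2:70474923-70477729), gave values that turned on the library number. It stood at 4.59, 22.7 and 20.1 CPM in AFSC, 37.6, 76.3 and 86.4 in ALSC and 2.60, 27.8 and 27.6 in ABSC. All ALSC libraries lay above all others. In ALSC against AFSC the value was 2.07 (SE 0.76, adjusted p = 0.15), with the block 2.25 (SE 0.46, adjusted p = 0.035) and without ABSC 1 2.07 (adjusted p = 0.048). In ABSC against ALSC it was -1.79 (adjusted p = 0.17), or -2.05 with the block (adjusted p = 0.036). Without the libraries numbered 1 these were 1.92 (adjusted p = 4.8e-16) and -1.55 (adjusted p = 9.0e-15), and ABSC was 0.38 above AFSC (adjusted p = 0.0011). Those p-values rest on 2 libraries of each type, which lay closer to each other than to number 1, and leave out the spread seen with number 1.

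Nkd1, an inducible inhibitor of Dishevelled, stood at 4.74, 3.64 and 4.13 CPM in AFSC, 10.3, 5.06 and 5.35 in ALSC and 5.55, 4.13 and 4.05 in ABSC. In contrast to Axin2 and Sp5, its number 1 library was the highest of each type. The value in ALSC against AFSC was 0.73 (SE 0.28, adjusted p = 0.16), or 0.68 with the block (adjusted p = 0.012). In ABSC against ALSC it was -0.60 (adjusted p = 0.21), or -0.56 with the block (adjusted p = 0.026). Without the libraries numbered 1 neither passed (0.42, adjusted p = 0.082, and -0.34, adjusted p = 0.15), and without ALSC 1 alone, in the fit with no block, ALSC was 0.32 above AFSC. Apcdd1, a membrane-bound Wnt inhibitor, had 5.39 to 6.34 CPM in AFSC, 5.61 to 6.58 in ALSC and 6.73 to 11.0 in ABSC. It did not pass without the block and with it was 0.57 higher in ABSC than in AFSC (adjusted p = 0.019) and 0.50 higher than in ALSC (adjusted p = 0.027).

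The known readouts of the canonical branch did not share a direction. Against AFSC, ALSC had higher Notum, lower Lef1 and, with the block, higher Axin2, Sp5 and Dkk1 and lower Lgr5 (log2 fold change -1.44, adjusted p = 0.023). Nkd1 was higher there with the block but not without the libraries numbered 1. Against AFSC, ABSC had lower Lef1, Lgr5 and Dkk1 and, with the block, higher Axin2 and Apcdd1.

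Library number went with the level of many of these genes. In the fit with the block, the fitted log2 difference of number 1 from the mean of numbers 2 and 3 had a median of -0.21 over the 44 genes and 0.01 over all genes. It was -1.87 for Sp5, -1.31 for Fzd6, -0.999 for Axin2 and -0.97 for Fzd10, and among the ligands -0.84 for Wnt5a, -0.75 for Wnt5b, -0.71 for Wnt8a and -0.69 for Wnt3. It was 0.76 for Rnf43, 0.65 for Fzd4 and 0.60 for Nkd1. Of the 44 genes, 17 were lowest in library 1 in all 3 cell types and 6 were highest there. The same counts were not made over all genes, so 17 and 6 have no share to be set against. Over all 16178 genes, 34.7% passed the F test for number 1 against numbers 2 and 3 in that fit. The split by number thus reached far beyond these genes. The labels do not say what the number stands for, and the differences given for the 44 genes are a description with no test.

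**Figure D4:**
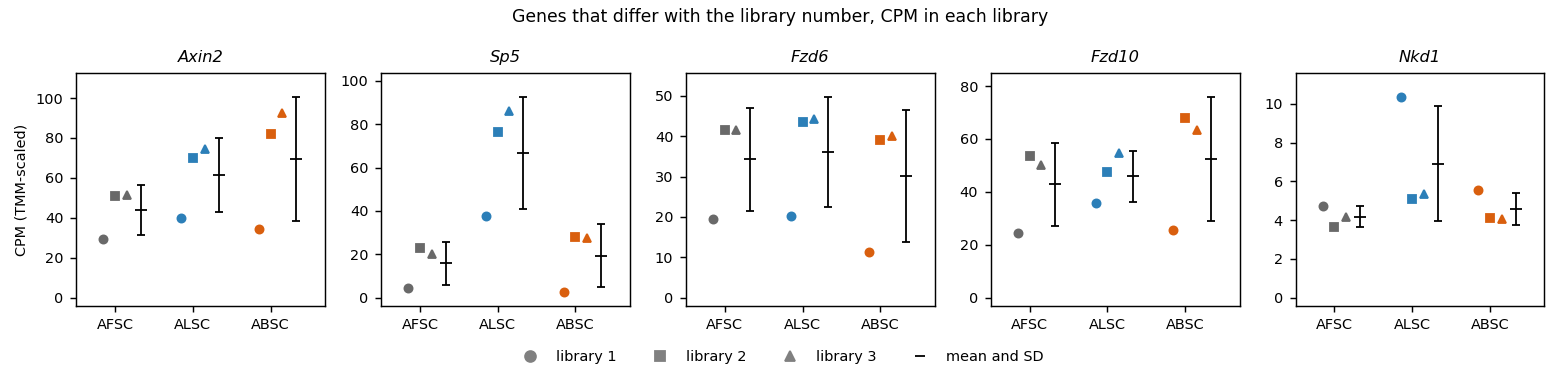
CPM in each library for 5 genes that differ with the library number, with circles, squares and triangles for libraries 1, 2 and 3, and the mean with its SD (n = 3) to the right of each group. Each panel has its own y axis. The circle is the lowest point of each cell type for Axin2, Sp5, Fzd6 and Fzd10 and the highest for Nkd1.

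A further 65 genes of the pathway were listed by role, and 48 of them were tested. In ABSC against AFSC 4 rose (8.33%, against 3.98% of all genes) and 2 fell (4.17%, against 4.00%). In ALSC against AFSC 1 rose (2.08%, against 3.54%) and 1 fell (2.08%, against 3.50%). In ABSC against ALSC 8 rose (16.7%, against 5.41%) and 3 fell (6.25%, against 5.56%). With the block 10 rose (20.8%, against 9.58%) and 5 fell (10.4%, against 9.78%) in ABSC against AFSC. For ALSC against AFSC the block gave 8 (16.7%, against 11.1%) and 7 (14.6%, against 11.1%), and for ABSC against ALSC 14 (29.2%, against 14.2%) and 7 (14.6%, against 14.3%). Of 10 other Wnt genes, 3 were tested.

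Ror1, a co-receptor for Wnt5a, stood at 5.26, 8.22 and 7.33 CPM in AFSC, 6.02, 12.2 and 13.4 in ALSC and 0.737, 2.09 and 2.63 in ABSC, which lay below both. It fell by 2.53 in ABSC against ALSC (SE 0.43, adjusted p = 0.0049) and fell by 1.93 against AFSC (SE 0.43, adjusted p = 0.022), the latter lost without AFSC 2 (adjusted p = 0.084), AFSC 3 (0.074) or ABSC 2 (0.067), or with no filter on low counts (0.094). Its more abundant relative Ror2 went the other way, with means of 34.3 CPM in AFSC, 34.1 in ALSC and 45.3 in ABSC. Ror2 did not pass without the block (adjusted p = 0.13 in ABSC against AFSC and 0.093 against ALSC). With the block it was higher in ABSC, by 0.39 (adjusted p = 0.0050) and 0.41 (adjusted p = 0.0028). Daam1, a formin of the planar polarity branch, rose in ABSC by 0.84 against AFSC (SE 0.10, adjusted p = 8.3e-04) and by 0.99 against ALSC (SE 0.10, adjusted p = 2.9e-04), at 40.3, 44.8 and 46.3 CPM in ABSC against 20.5 to 26.2 elsewhere. Among 19 other intracellular genes Tle3, a corepressor of TCF factors, fell by 0.56 in ABSC against ALSC (adjusted p = 0.018). That call was lost without ALSC 2 (adjusted p = 0.067), ALSC 3 (0.064) or ABSC 3 (0.060). Bcl9l, on the same list, rose by 0.50 in ABSC against ALSC (SE 0.12, adjusted p = 0.022). Tle4, a relative of Tle3, was 0.47 higher in that comparison (adjusted p = 0.076) and passed with the block (0.47, adjusted p = 4.3e-05). Cer1, an antagonist of Nodal, BMP and Wnt, had 255 reads in AFSC, 441 in ALSC and 3 in ABSC. That put AFSC 81.4 times above ABSC (95% interval 27.5 to 397, counting error only).

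Other target genes split by cell type. Cdx2, a trophoblast and posterior factor, stood at 0.835, 6.43 and 6.07 CPM in ABSC and at 0 to 0.235 in the other types, and rose in ABSC against AFSC (adjusted p = 0.0084) and ALSC (adjusted p = 0.0061). The first of these calls was lost with no filter on low counts (adjusted p = 0.066). Myc fell by 0.94 in ALSC against AFSC (SE 0.12, adjusted p = 0.0022), at 47.1, 65.3 and 57.2 CPM against 98.4, 112 and 116. It was 1.01 higher in ABSC than in ALSC (adjusted p = 7.2e-04), and ABSC and AFSC overlapped. T, the streak factor brachyury, stood at 65.9, 72.8 and 74.0 CPM in AFSC, 134, 132 and 143 in ALSC and 72.2, 151 and 153 in ABSC. It rose in ALSC against AFSC (log2 fold change 0.94, SE 0.23, adjusted p = 0.037), but not with the block (adjusted p = 0.071), with no filter (0.21) or without any 1 of the AFSC or ALSC libraries (adjusted p from 0.061 to 0.12). In ABSC the value against AFSC was 0.82 (adjusted p = 0.059), and without ABSC 1 it was 1.10 (adjusted p = 1.7e-05). ABSC against ALSC was -0.12 (adjusted p = 0.79), and without the libraries numbered 1 it was 0.16 and passed (adjusted p = 0.016). Ccnd1 was called in none without the block, at 123 to 197 CPM. With the block it was lower than in AFSC in both ALSC (log2 fold change -0.31, adjusted p = 0.0017) and ABSC (-0.22, adjusted p = 0.017). Of 7 streak and mesoderm markers, which include T, 6 were tested. Evx1 and Hand1 rose and Mixl1 fell in ABSC against both other types, and T and Hand1 rose in ALSC against AFSC. Mixl1 fell by 1.33 in ABSC against AFSC (adjusted p = 0.012) and fell by 1.95 against ALSC (adjusted p = 0.0014). Their summed level was 73.7 to 82.4 CPM in AFSC, 143 to 156 in ALSC and 346 to 426 in ABSC, where Hand1, a factor of trophoblast and mesoderm, made up 46.1% to 70.6% of it. Without Hand1 the sums were 73.5 to 82.0, 141 to 154 and 102 to 219 CPM. Their part in the result was not tested.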

How the data were processed

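The authors deposited a table of unnormalised read counts, 1 column a library. Alignment with HISAT2 2.0.5 and counting with featureCounts 1.5.0-p3 are given by the submitters' processing notes. The notes name build mm9, but 53499 of the 54409 gene IDs shared with a GRCm38 annotation had the same coordinates, and coordinates here are read as GRCm38. Of 54878 entries, 346 loci without an Ensembl ID, with 0.208% to 0.227% of the counts, were left out. Per the labels' protocols the library kit does not mark the strand. One RNA kit is named for all cells and another for ALSC, and the sources name 2 sequencer models.

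The counts were tested with edgeR 4.0.16 under R 4.3.3: filterByExpr (minimum count 10, minimum total 15), TMM factors (0.963 to 1.06), and 1 robust quasi-likelihood fit of all 9 libraries with 6 residual degrees of freedom, 4 with the block. Tests were two-sided, with Benjamini-Hochberg adjustment over 16178 genes and a threshold of 0.05. Each SE is the size of the change divided by the root of its F value. CPM use the TMM-scaled library sizes, and a count of 3 reads corresponds to 0.138 to 0.157 CPM. Such limits, and the intervals of count ratios, cover counting error only. Library numbers were taken as pairing: same-numbered deviations from the group means correlated at 0.464 to 0.554 (number 1), 0.197 to 0.287 (number 2) and 0.224 to 0.356 (number 3), all above 0.1. Libraries 2 and 3 of different types correlated at 0.221 to 0.273, and number 1 with either at -0.426 to -0.304. Deviations within a type sum to 0, so number 1 standing apart makes numbers 2 and 3 correlate whatever their pairing. Passing 0.1 therefore does not show that numbers 2 and 3 are separate pairs. DESeq2 1.42.0, other scalings, no filter, left-out libraries and fits of 2 groups were tried as alternatives. Scripts were tested on simulated data. The genes and lists were chosen with earlier results of these data known. Values per library are given for genes called in at least 1 comparison and for 7 known readouts (Axin2, Lef1, Sp5, Nkd1, Notum, Lgr5, Dkk1). Of the further pathway genes, those with the largest called change per list and comparison are named, with T, Cdx2, Myc and Ccnd1. Rspo1 and Ror2 are given beside their relatives Rspo3 and Ror1, and Bcl9l and Tle4 beside Tle3 of the same list.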

Additional observations from a re-analysis of the deposited data

How the results depend on the processing

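The calls of Wnt8a, Wls, Fzd8 and Lef1 in both of their comparisons, of Fzd5, Rspo3 and Dkk1 in ABSC against ALSC and of Lgr5 in ABSC against AFSC were kept under each alternative run. With the replicate block the counts of called genes were 14 in ABSC against AFSC, 20 in ALSC against AFSC, 21 in ABSC against ALSC and 27 by the joint test, in place of 6, 5, 9 and 13. For the further pathway genes they were 15, 15 and 21, in place of 6, 2 and 11. The block also ended the call of T in ALSC against AFSC. Without the libraries numbered 1 the counts were 23, 26, 25 and 33, and 21, 21 and 24 for the further genes. In ALSC against AFSC, DESeq2 called 11 genes and 4 further genes, and 10.5% of all genes in place of 7.04%. Testing without a filter called 9 there, and 3.81% of a larger set of all genes. Leaving out 1 library in turn gave 5 to 9, 2 to 10, 5 to 12 and 8 to 16 calls, with 4.13% to 10.7%, 2.14% to 9.37%, 5.22% to 14.1% and 8.62% to 18.6% of all genes, and 4 to 10, 1 to 4 and 7 to 14 for the further genes. Of the single-gene values, 754 kept direction and call, 52 lost the call, 29 gained it and 13 changed sign. Of these 13, 12 were not called, and T in ABSC against ALSC was called with the opposite sign without the libraries numbered 1 (0.16, adjusted p = 0.016). Leaving out 1 library gave log2 fold changes from -0.085 to 0.50 for Axin2 and -0.29 to 0.16 for T in ABSC against ALSC, -0.027 to 0.24 for Nkd1, -0.15 to 0.80 for Sp5 and -0.017 to 0.12 for Myc in ABSC against AFSC, -1.29 to 0.16 for Cdx2 in ALSC against AFSC, and -0.035 to 0.20 for Ccnd1 in ABSC against ALSC. Beyond the fewer libraries, the causes were not tested. Without division by gene length, the share of Wnt8a was 57.3% in AFSC, 52.3% in ALSC and 23.2% in ABSC, and that of Lef1 5.78%, 2.28% and 2.65%. Lgr5, Notum, Wnt6 and Sfrp5 rest on few reads, so depth limits their folds.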
